A study of Mus musculus with 26 samples.

Results

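The Wnt ligands, their Frizzled (Fzd) receptors, the secreted antagonists of the Sfrp and Dkk families and the R-spondin (Rspo) agonists were followed in mouse embryonic fibroblasts in which ATRX, a chromatin remodeler of the SNF2 family that also binds RNA, was altered. Members were all protein-coding genes of the GENCODE M21 annotation with a symbol that joins Wnt, Fzd, Sfrp, Dkk or Rspo to a number. The rule gave 41 of 21951 protein-coding genes, of which 19 were Wnt, 10 Fzd, 4 Sfrp, 4 Dkk and 4 Rspo genes. The study asked how the interaction of ATRX with RNA bears on the place of ATRX and of PRC2 on chromatin and on gene expression. All cells were female fibroblasts of a parental line. They were unaltered (WT), carried an in-frame CRISPR deletion of the RNA-binding region (RBR) in the endogenous gene (ATRXΔRBR), or expressed an shRNA to ATRX under puromycin selection (ATRX KD). Each group had 2 libraries of polyA RNA-Seq. CUT&RUN, which cuts out the DNA bound by an antibody's target, was done for ATRX in WT and ATRXΔRBR, and for EZH2, the methyltransferase of PRC2, and its product H3K27me3 in all 3 groups, with 2 peak lists each. The study describes a single ATRXΔRBR clone, so the deletion and the clone cannot be told apart.

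Wnt proteins are secreted, lipid-modified ligands that bind the cysteine-rich domain of Frizzled receptors. Together with the co-receptors Lrp5 and Lrp6 they stabilize β-catenin, and with other co-receptors such as Ror1 and Ror2 they act through β-catenin-independent routes. Sfrp proteins carry a Frizzled-like domain and bind Wnt ligands outside the cell. Dkk1, Dkk2 and Dkk4 bind Lrp5 and Lrp6, whereas Dkk3 is a divergent member. R-spondins bind Lgr receptors and the ubiquitin ligases Rnf43 and Znrf3, which otherwise remove Frizzled receptors from the surface. Many of these genes are developmental regulators with CpG-rich promoters and are classical targets of PRC2, which marks silent developmental genes with H3K27me3.

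The promoters of 6 members are printed because they stand for the chromatin patterns described further on. Each is 300 bases from the RefSeq annotation of GRCm38.p6 (the mm10 build), from 250 bases before to 50 bases after an annotated start, on the strand of the gene and 5′ to 3′, with every CG dinucleotide in capitals. The RefSeq table held a promoter for 27 of the 41 members. The CG dinucleotide reads the same on both strands, was present in 94.6% of the 32851 promoters in the table, and had a median of 7 copies in them. Wnt10b and Fzd7 carried EZH2 without H3K27me3 in WT cells, Wnt4 was a transcribed gene with EZH2 and a short H3K27me3 peak, Wnt2b and Sfrp2 had H3K27me3 in WT and none in ATRXΔRBR, and Wnt2 had no peak and no count.
Wnt10b: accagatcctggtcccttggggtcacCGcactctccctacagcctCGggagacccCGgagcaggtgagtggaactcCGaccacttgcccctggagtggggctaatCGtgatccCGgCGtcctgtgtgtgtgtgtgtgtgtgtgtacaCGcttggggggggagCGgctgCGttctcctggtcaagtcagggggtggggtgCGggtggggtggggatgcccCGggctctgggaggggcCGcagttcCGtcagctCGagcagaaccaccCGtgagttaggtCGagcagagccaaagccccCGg
Fzd7: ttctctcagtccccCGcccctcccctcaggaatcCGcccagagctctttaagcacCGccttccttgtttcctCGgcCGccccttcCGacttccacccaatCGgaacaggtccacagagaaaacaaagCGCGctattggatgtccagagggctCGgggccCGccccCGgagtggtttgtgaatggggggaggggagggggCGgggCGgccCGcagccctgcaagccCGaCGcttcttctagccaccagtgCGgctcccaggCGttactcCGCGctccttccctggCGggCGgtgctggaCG
Wnt4: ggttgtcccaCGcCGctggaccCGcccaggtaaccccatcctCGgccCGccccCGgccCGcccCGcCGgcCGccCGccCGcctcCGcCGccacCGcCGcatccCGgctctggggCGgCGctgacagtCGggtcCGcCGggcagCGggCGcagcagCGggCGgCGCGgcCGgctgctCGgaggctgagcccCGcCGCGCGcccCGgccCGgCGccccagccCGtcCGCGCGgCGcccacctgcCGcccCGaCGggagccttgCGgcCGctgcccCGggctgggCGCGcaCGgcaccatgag
Wnt2b: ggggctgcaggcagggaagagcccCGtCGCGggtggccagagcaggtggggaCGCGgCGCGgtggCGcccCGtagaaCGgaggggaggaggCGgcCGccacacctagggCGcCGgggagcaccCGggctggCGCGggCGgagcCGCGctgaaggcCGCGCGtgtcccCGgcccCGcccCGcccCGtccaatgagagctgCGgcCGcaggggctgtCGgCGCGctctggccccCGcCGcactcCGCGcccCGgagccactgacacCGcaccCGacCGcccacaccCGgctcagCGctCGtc
Sfrp2: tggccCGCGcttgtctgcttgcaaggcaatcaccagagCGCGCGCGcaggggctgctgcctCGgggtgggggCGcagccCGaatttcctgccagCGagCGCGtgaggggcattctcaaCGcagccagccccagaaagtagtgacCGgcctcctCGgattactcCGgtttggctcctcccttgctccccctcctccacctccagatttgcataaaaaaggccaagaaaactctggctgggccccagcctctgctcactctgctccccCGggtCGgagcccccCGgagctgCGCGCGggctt
Wnt2: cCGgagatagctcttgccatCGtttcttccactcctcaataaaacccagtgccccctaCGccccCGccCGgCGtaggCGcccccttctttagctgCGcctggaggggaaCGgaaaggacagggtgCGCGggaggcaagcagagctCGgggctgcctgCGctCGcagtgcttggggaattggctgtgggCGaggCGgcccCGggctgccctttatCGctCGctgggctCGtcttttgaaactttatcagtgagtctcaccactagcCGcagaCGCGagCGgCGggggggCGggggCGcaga

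The Wnt10b promoter (chr15:98778101-98778400, minus strand) held 18 CG dinucleotides and lay under EZH2 peaks in 3 lists, those of WT and the first of ATRXΔRBR. That of Fzd7 (chr1:59481897-59482196, plus strand) held 24 and overlapped an EZH2 peak in all 6 EZH2 lists. In Wnt4 (chr4:137277385-137277684, plus strand) there were 51 CG dinucleotides, more than in 99.3% of the promoters of the table, and EZH2 peaks covered it in 5 of 6 lists. The Wnt2b promoter (chr3:104961660-104961959, minus strand) held 43 CG dinucleotides. Its 300 bases lay within H3K27me3 peaks in both WT lists and outside them in both ATRXΔRBR lists. The Sfrp2 promoter (chr3:83766071-83766370, plus strand), with 22 CG dinucleotides, gave the same picture in those 4 lists. Wnt2 (chr6:18030396-18030695, minus strand) held 27 CG dinucleotides, so that a CG-rich promoter alone did not go with a peak.

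The 6 RNA-Seq libraries held 9051712 to 21723597 estimated counts, so that 1 count was worth 0.0463 to 0.109 CPM, the count scaled to the TMM-normalized library total. Atrx RNA in the libraries labelled ATRX KD, at 411 and 550 CPM, overlapped that in WT, at 633 and 434 CPM, and lay above that in ATRXΔRBR, at 371 and 312 CPM. On the TPM scale, which divides by the effective length of the transcripts measured, the libraries labelled ATRX KD stood at 331 and 512 TPM and WT at 233 and 141 TPM, with effective lengths for Atrx of 2803 and 2368 bases against 4937 and 6255. In CPM the mean was thus 481 in ATRX KD and 533 in WT, with the groups overlapping, and in TPM both ATRX KD libraries lay above both WT libraries. The study assessed its knockdown by western blot, which the files used here do not hold, so protein was not analysed here and ATRX KD below means the libraries so labelled. The names in the authors' list of raw files put all WT and ATRXΔRBR libraries on the same sequencing run and give no run for ATRX KD, so a difference in run and the knockdown cannot be told apart. The ATRX KD peak lists were also shorter, with 5376 to 7241 peaks for EZH2 and H3K27me3 against 11408 to 38832 in the other 2 groups. Of 12 fibroblast markers 8 to 11 were detected per library, with summed levels of 10588 to 21983 TPM (a unit scaled by gene length and library size), but Thy1 was at 0 in all 6 libraries, Lum in 5 of 6 and Dcn in both ATRX KD libraries. Col3a1 had 28.1 and 32.2 TPM in WT, 20.3 and 15.8 TPM in ATRXΔRBR and 0.36 and 0.75 TPM in ATRX KD. Col1a1 had 980 and 612, 1304 and 1196, and 1113 and 1210 TPM in the same order, so the markers were not alike across groups. Markers of epithelial, endothelial, immune and muscle cells summed to 0.05 to 12.1 TPM, whereas Sox2, a pluripotency and neural progenitor gene, stood at 43.9 and 37.1 TPM in the WT libraries, 18.7 and 17.5 TPM with the deletion and 1.10 and 0.55 TPM with the shRNA. The part of these differences in the results below was not tested, and in bulk RNA fewer cells of a type and less RNA per cell cannot be told apart.

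WT fibroblasts expressed a small set of ligands and most receptors. In WT replicates 1 and 2, 18 and 17 of the 41 members reached 1 TPM, which is 43.9% and 41.5% of them against 51.8% and 52.4% of protein-coding genes. The count was 13 in each ATRXΔRBR library, where 51.5% and 51.0% of protein-coding genes reached it, and 18 and 16 in ATRX KD, where 51.4% and 51.5% did. TPM accounts for gene length and is used here to compare genes within a library. Among ligands Wnt10b, which signals through β-catenin, stood highest with 86.9 and 109 TPM in the WT replicates. Wnt5a, the main ligand of β-catenin-independent signaling, followed with 12.7 and 13.9 TPM, and Wnt4 with 9.37 and 4.85 TPM. The levels of Wnt5a and Wnt4 did not overlap, whereas those of Wnt5b (4.89 and 4.49 TPM) and Wnt4 did. Wnt10a had 3.78 and 4.53 TPM and Wnt9a 2.50 and 2.79 TPM, and every other Wnt gene was below 1 TPM in both replicates.

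The receptor set was led by Fzd2, Fzd6, Fzd1 and Fzd7. Fzd2 had 40.03 and 31.04 TPM, Fzd6 27.1 and 35.6 TPM, Fzd1 27.03 and 25.95 TPM and Fzd7 20.3 and 19.9 TPM in the WT replicates. Fzd2 and Fzd6 overlapped, and Fzd7 lay below all 3. Fzd8 had 13.1 and 11.9 TPM, and Fzd3, Fzd5, Fzd4 and Fzd9 had 0.83 to 3.92 TPM. Fzd10 had no count in any library. Among the extracellular modulators Rspo3 had 5.16 and 4.45 TPM, Rspo2 2.05 and 2.44 TPM and Dkk3 1.51 and 1.95 TPM. Dkk2, Sfrp1 and Sfrp4 stayed at 0.25 to 0.74 TPM. No count was found in any of the 6 libraries for Dkk1, Dkk4, Fzd10, Wnt2, Wnt3a, Wnt8a, Wnt8b and Wnt9b, which allows at most 3 counts, or 0.139 to 0.327 CPM depending on the library. This limit covers counting error only.

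**Figure D1:**
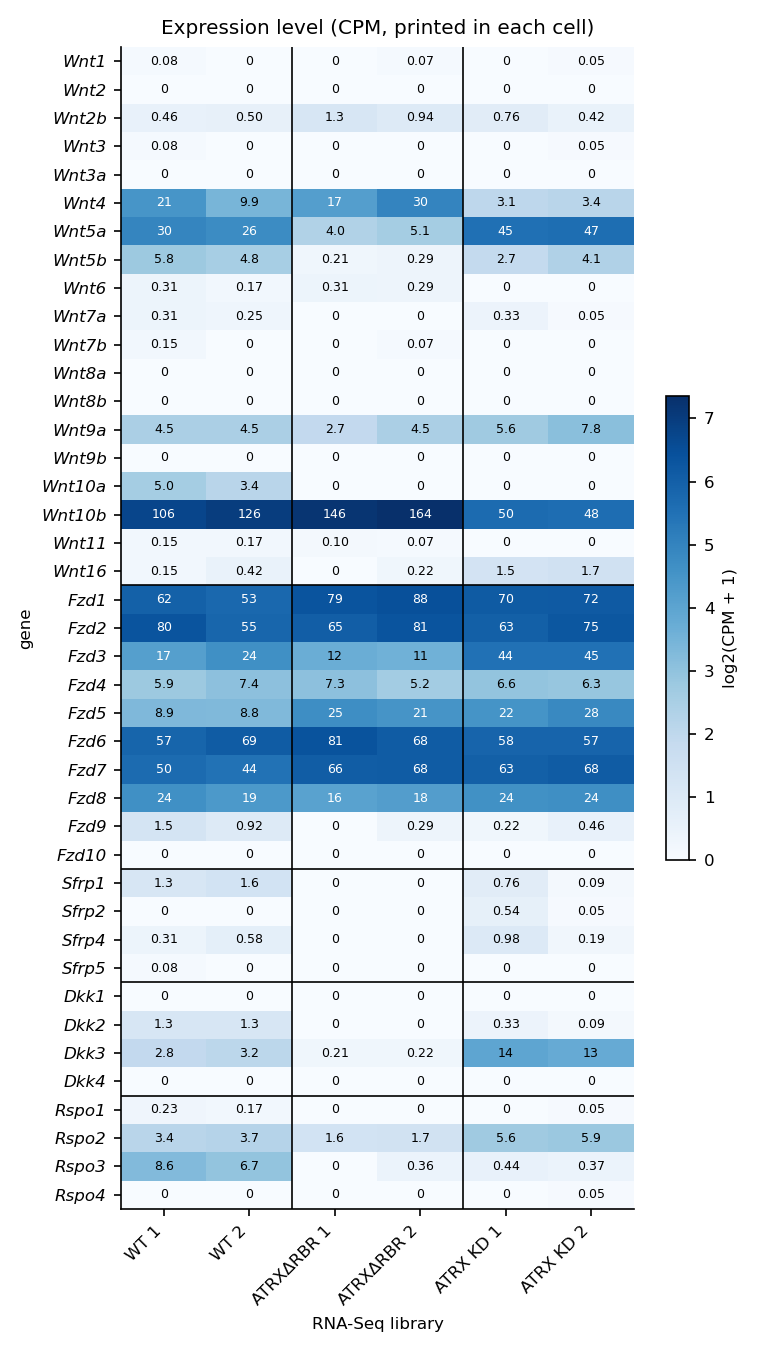
Expression of the 41 Wnt, Fzd, Sfrp, Dkk and Rspo genes (rows, by family) in the 6 RNA-Seq libraries (columns). The number in each cell is CPM and the colour is log2(CPM + 1). Wnt10b and Fzd1, Fzd2, Fzd6 and Fzd7 were dark in every column, Wnt5a was pale in the ATRXΔRBR columns, and Wnt10a was at 0 in all 4 ATRXΔRBR and ATRX KD columns.

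Peaks near the transcription start sites (TSSs) of these genes were counted next, since the families are known PRC2 targets. A gene was counted for a target when at least 1 bp of a peak lay within 2 kb of its TSS. H3K27me3 was found at 21 of 41 members in both WT lists, against 14.7% of 21938 protein-coding genes on assembled chromosomes, and at no member in a single WT list. EZH2 was found at 30 members in both WT lists, against 44.9% of genes. EZH2 together with H3K27me3 marked 18 members, against 7.53% of genes, and EZH2 alone marked 12, against 36.7%. No Fzd gene had H3K27me3 in WT. The study gives sequencing depth only as an approximate range over all samples and the lists carry no read counts, so no floor was set for an absent peak.

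The members with EZH2 but no H3K27me3 were transcribed in WT, as were most genes in that state. They were Wnt5a, Wnt9a, Wnt10b, Rspo2 and 8 receptors (Fzd1, Fzd2, Fzd3, Fzd4, Fzd5, Fzd7, Fzd8 and Fzd9). All 12 had a mean of 1 TPM or more in WT, as did 94.5% of the 8018 genes in that state with a value, and their median was 7.84 TPM against 35.4 TPM for that state. Another 6 members, Fzd6, Wnt4, Rspo3, Wnt5b, Wnt10a and Dkk3, reached 1 TPM outside it. The 18 members with both EZH2 and H3K27me3 had a median of 0.108 TPM against 0.105 TPM for the 1650 genes of that state. Of them Wnt4, Rspo3 and Wnt10a alone reached 1 TPM. Dkk2, Wnt5b and Wnt8b had H3K27me3 in both WT lists without EZH2 in both. Dkk3, Dkk4, Fzd10, Sfrp4, Wnt2, Wnt8a and Wnt16 had neither, and Fzd6 had EZH2 in 1 WT list. Dkk3 at 1.51 and 1.95 TPM was the only member without either peak that reached 1 TPM.

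**Figure D2:**
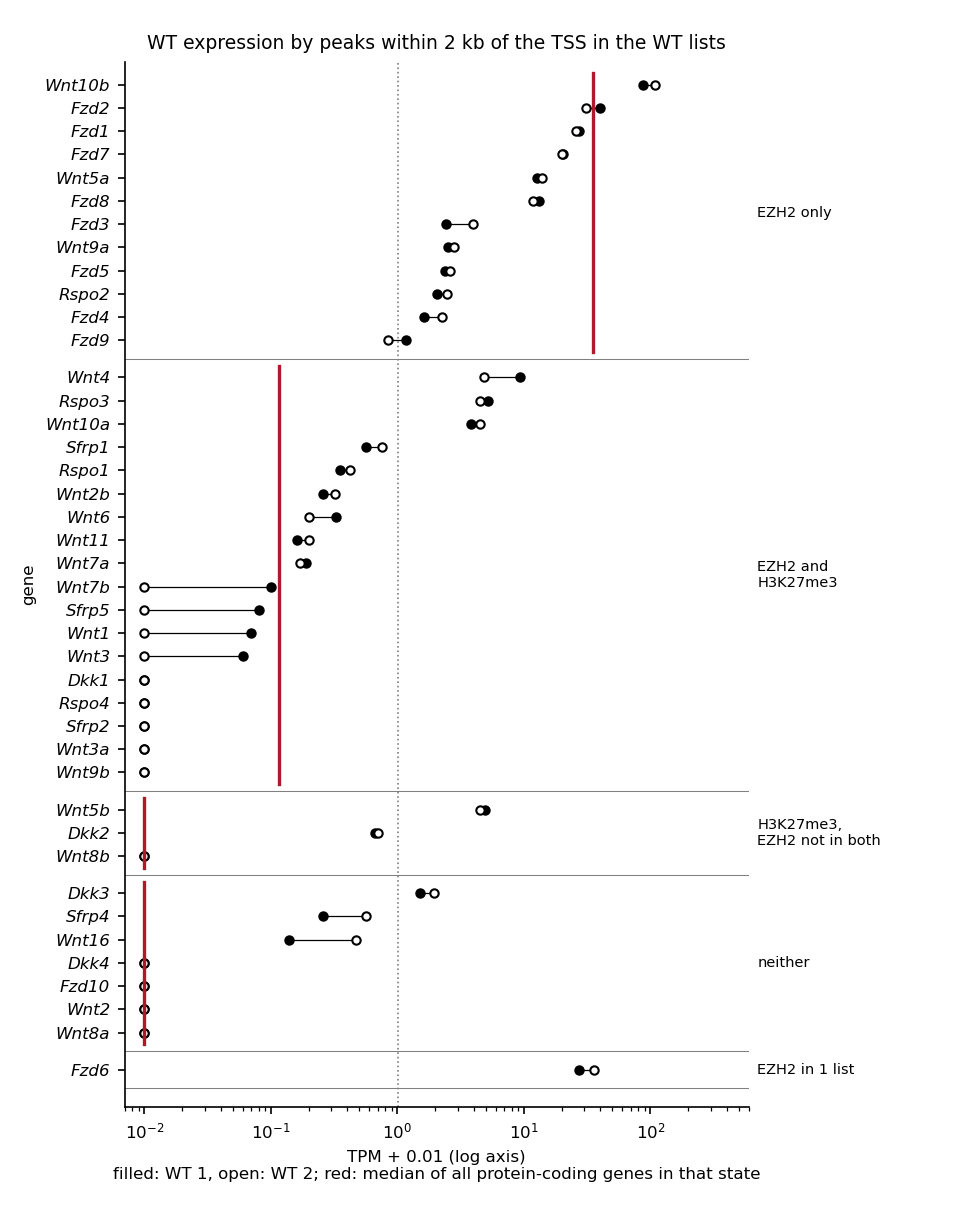
Level of each member in the 2 WT libraries (TPM + 0.01, log axis; filled circles replicate 1, open circles replicate 2), grouped by the EZH2 and H3K27me3 peaks within 2 kb of its TSS in the WT lists. The red line is the median of all protein-coding genes in that state and the dotted line is 1 TPM. The 12 members with EZH2 alone lay around or right of the dotted line, and 15 of the 18 members with both marks lay left of it.

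**Figure D3:**
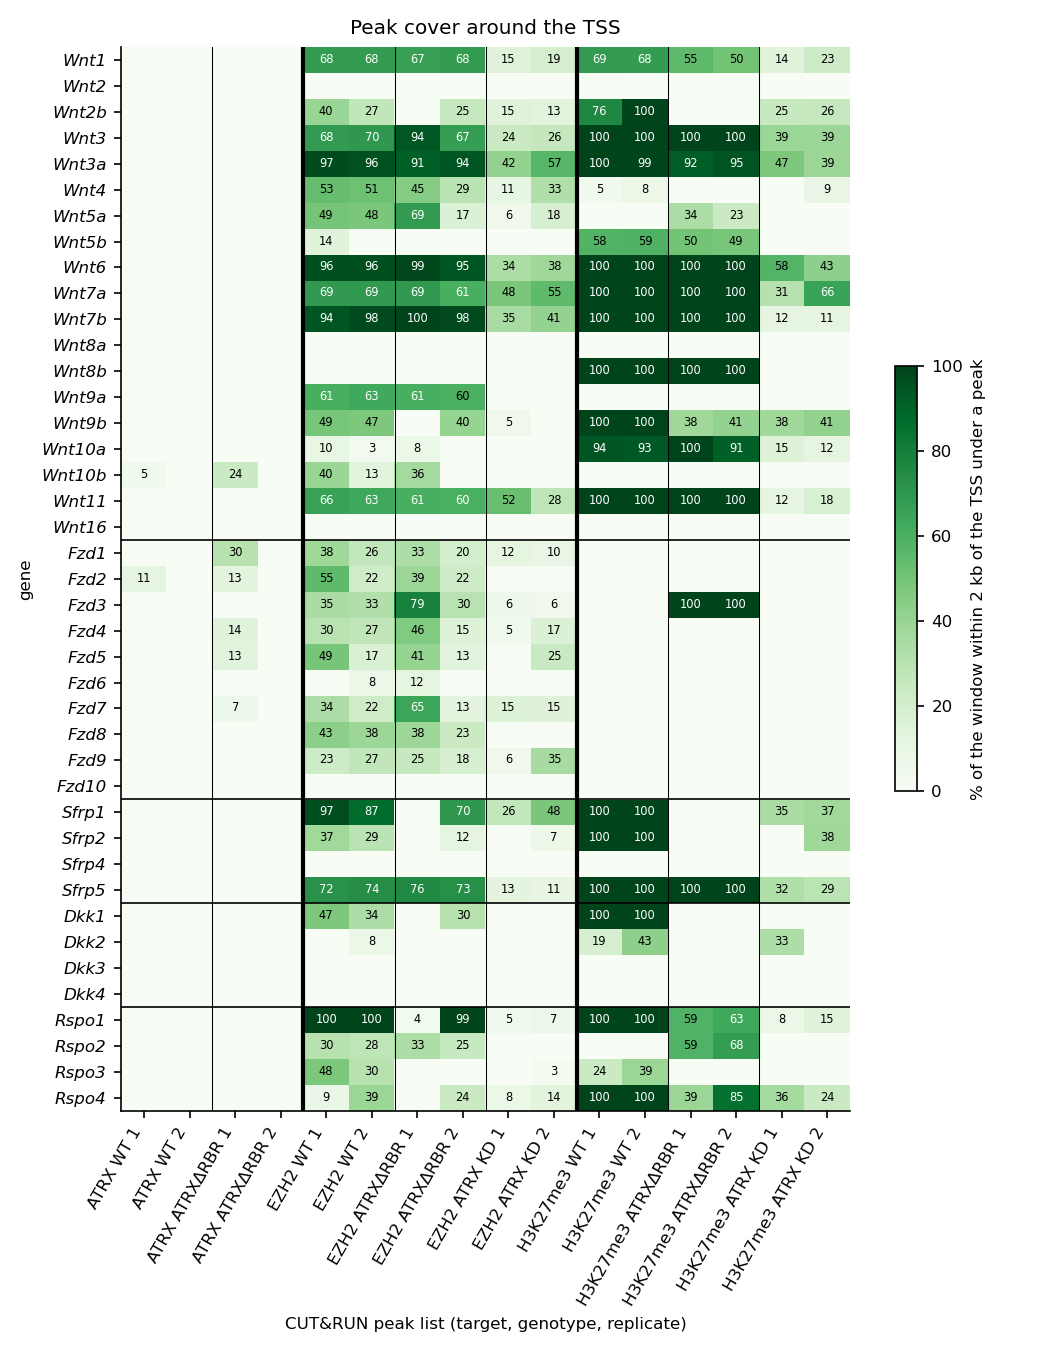
Share of the 2 kb on each side of the TSS that lay under a peak (colour and number, in percent; blank cells had none) for the 41 members (rows) in the 16 CUT&RUN lists (columns). Receptor rows were blank for H3K27me3 except Fzd3 in ATRXΔRBR at 100%, and Sfrp1, Sfrp2 and Dkk1 went from 100% in WT to blank in ATRXΔRBR.

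The first comparison asked what the RBR deletion changed in the RNA of these genes. The ligands Wnt5a, Wnt5b and Wnt10a and the secreted modulators Dkk2, Dkk3, Sfrp1 and Rspo3 were lower in ATRXΔRBR, and a single receptor, Fzd5, was higher. Of the 23 members with more than 10 counts in all over the 4 libraries, 8 passed edgeR's quasi-likelihood test at a Benjamini-Hochberg adjusted p under 0.05, with 1 higher and 7 lower. Over all 16334 genes tested 6.85% passed, 2.79% higher and 4.07% lower. The other 18 members had too few counts to test. Wnt10a, Dkk2, Sfrp1 and Sfrp4 had no count in ATRXΔRBR, and Wnt5b, Dkk3, Rspo3 and Fzd9 had 4 to 6 counts there in all. These 8 entered the test through their WT counts alone, so the first 4 could only come out lower, and 6 of the 7 lower calls were among the 8. With at least 10 counts required in every library, 13 members were left and 2 passed, Wnt5a lower and Fzd5 higher, where 597 of 11929 genes passed.

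Wnt5a (chr14:28504750-28527448, plus strand) had 29.8 and 26.0 CPM in the WT replicates and 3.99 and 5.09 CPM in ATRXΔRBR. The groups were far apart, with a log2 fold change of -2.60 ± 0.23 (SE; edgeR adjusted p = 0.00075). Wnt5b (chr6:119432531-119544347, minus strand), the closest relative of Wnt5a, had 5.81 and 4.84 CPM in WT and 0.210 and 0.291 CPM in ATRXΔRBR, or 76 and 58 counts against 2 and 4. Its log2 fold change was -4.32 ± 0.45 (SE; edgeR adjusted p = 0.0014). Fbxl14 overlaps Wnt5b, and Gm2670 overlaps Wnt5a, and the strand setting of the counting is not given in the sources used here, so reads of such pairs may be shared. Wnt10a (chr1:74791516-74804179, plus strand), a β-catenin ligand, had 66 and 41 counts in WT and none in ATRXΔRBR. It was at least 33.1-fold lower with 3 counts over the group as the floor (edgeR adjusted p = 0.0024).

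The other 5 ligands tested did not pass. Wnt10b (chr15:98770712-98778150, minus strand) had 106 and 126 CPM in WT and 146 and 164 CPM in ATRXΔRBR. These did not overlap, yet the log2 fold change of 0.42 ± 0.18 (SE) did not pass (edgeR adjusted p = 0.23). Wnt4 (chr4:137277489-137299726, plus strand) had 21.4 and 9.93 CPM in WT and 17.1 and 30.4 CPM in ATRXΔRBR. Its groups overlapped, and the log2 fold change was 0.61 ± 0.38 (SE; edgeR adjusted p = 0.43). Without WT replicate 1 it was 1.27 and without ATRXΔRBR replicate 1 it was 0.96, so the Wnt4 value turned on single libraries. A fit without 1 replicate leaves a single library in that group, whose spread it cannot measure, so no p-value is given for such fits. Wnt2b, Wnt6 and Wnt9a had adjusted p of 0.27, 0.87 and 0.69.

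Of the 9 receptors tested Fzd5 (chr1:64730558-64737751, minus strand) passed. It had 8.94 and 8.77 CPM in WT and 24.99 and 21.4 CPM in ATRXΔRBR, a log2 fold change of 1.40 ± 0.20 (SE; edgeR adjusted p = 0.0064). Both ATRXΔRBR libraries lay above both WT libraries by more than the spread of either pair. Gm38058 overlaps Fzd5 on the other strand, so reads may be shared. Fzd7 (chr1:59482424-59486955, plus strand) had 50.1 and 44.0 CPM in WT and 66.4 and 68.1 CPM in ATRXΔRBR, and Fzd1 had 61.8 and 53.2 CPM in WT and 79.3 and 87.6 CPM in ATRXΔRBR. Neither passed, with log2 fold changes of 0.52 ± 0.17 and 0.55 ± 0.18 (SE) and adjusted p of 0.13 for both, although the groups did not overlap. Fzd3 (chr14:65192449-65262463, minus strand) went the other way, with 17.0 and 24.0 CPM in WT and 11.9 and 10.9 CPM in ATRXΔRBR. Its log2 fold change was -0.84 ± 0.24 (SE; edgeR adjusted p = 0.08), and the call changed without WT replicate 1. On the TPM scale its groups overlapped, at 2.43 and 3.92 in WT and 4.01 and 1.65 in ATRXΔRBR, and Gm27263 overlaps it on the same strand. Fzd2 had 79.7 and 55.4 CPM in WT and 65.4 and 80.8 CPM in ATRXΔRBR, Fzd6 had 56.7 and 68.6 against 80.9 and 67.5 CPM, and Fzd8 had 23.8 and 19.4 against 15.6 and 17.5 CPM. Those 3 had adjusted p of 0.82, 0.53 and 0.35. Fzd9 had the largest fold among receptors, with 19 and 11 counts in WT and 0 and 4 in ATRXΔRBR, or 1.45 and 0.918 CPM against 0 and 0.291 CPM. Its groups did not overlap, and the log2 fold change of -2.75 ± 0.85 (SE) did not pass (edgeR adjusted p = 0.11). It passed with the replicate block (0.047), and the call also changed without WT replicate 2 or ATRXΔRBR replicate 2. Fzd4, with 5.89 and 7.43 CPM against 7.35 and 5.23 CPM, had overlapping groups (adjusted p = 0.92).

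Of the 8 Dkk and Sfrp genes, which encode secreted antagonists, 4 were tested, and Dkk3, Dkk2 and Sfrp1 passed as lower in ATRXΔRBR. Dkk1, Dkk4 and Sfrp2 had no count in either group and Sfrp5 had 1 count in all. Dkk3 (chr7:112116017-112159057, minus strand) had 2.75 and 3.17 CPM in WT and 0.210 and 0.218 CPM in ATRXΔRBR, or 36 and 38 counts against 2 and 3. Its log2 fold change was -3.72 ± 0.51 (SE; edgeR adjusted p = 0.0046). Dkk2 (chr3:132085292-132180304, plus strand) had 17 and 15 counts in WT and none in ATRXΔRBR, at least 9.91-fold lower (edgeR adjusted p = 0.014). Sfrp1 (chr8:23411502-23449632, plus strand) had 17 and 19 counts in WT and none in ATRXΔRBR, at least 11.2-fold lower (edgeR adjusted p = 0.011). Both antagonists were thus undetected in ATRXΔRBR from WT levels of 1.25 to 1.59 CPM. With limma on TPM, neither passed (adjusted p = 0.081 and 0.096), nor did Fzd5 (adjusted p = 0.1). Sfrp4 had 4 and 7 counts in WT and none in ATRXΔRBR and did not pass (adjusted p = 0.093).

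Of the 4 R-spondin agonists Rspo3 passed as lower and Rspo2 did not pass. Rspo1, with 5 counts in WT and none in ATRXΔRBR, and Rspo4, with none in either group, were not tested. Rspo3 (chr10:29452416-29535867, minus strand) had 8.64 and 6.68 CPM in WT and 0 and 0.363 CPM in ATRXΔRBR, or 113 and 80 counts against 0 and 5. Its log2 fold change was -5.11 ± 0.63 (SE; edgeR adjusted p = 0.003). Gm20276 overlaps Rspo3 on the same strand. Rspo2 (chr15:43020794-43170826, minus strand) had 3.44 and 3.67 CPM in WT and 1.57 and 1.67 CPM in ATRXΔRBR, a log2 fold change of -1.12 ± 0.34 (SE; edgeR adjusted p = 0.11). In CPM, 13 of the 23 members tested had both ATRXΔRBR libraries below both WT libraries, against 26.4% of all genes tested, and 5 had both above, against 23.1%. The 13 include all 8 members that entered the test through WT alone, so this count is a description and nothing is read from it. An exact permutation test of 2 against 2 libraries cannot go below p = 0.333, so single values carry no test of their own beyond the fit across all genes. The methods call the RNA replicates biological without saying how they were separated, so p-values measure the spread between these libraries only.

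**Figure D4:**
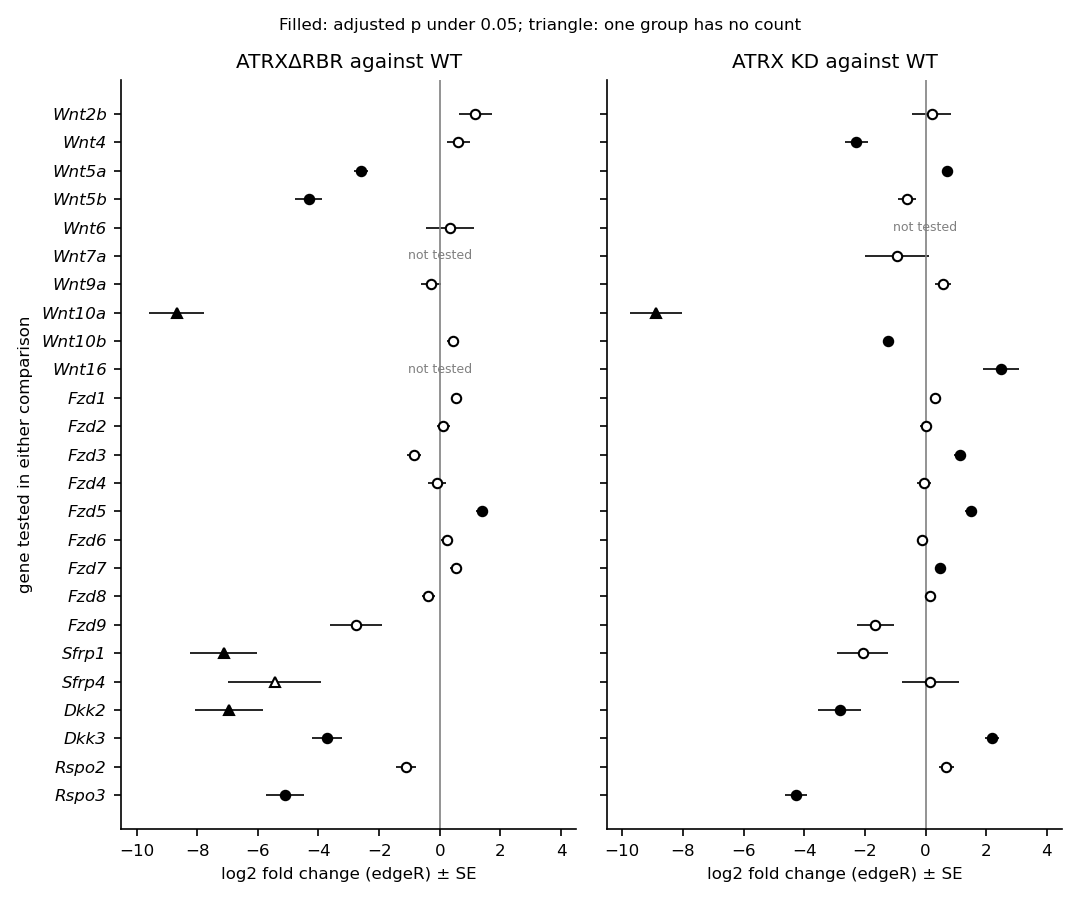
Log2 fold change (edgeR) ± SE of each member tested in ATRXΔRBR against WT (left) and ATRX KD against WT (right). Filled symbols had an adjusted p under 0.05, and triangles mark genes with no count in one of the groups, whose plotted value is no bound. Both panels rest on the same WT libraries. Wnt5a and Dkk3 lay left of 0 in the left panel and right of 0 in the right panel, while Fzd5 lay right of 0 in both.

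The other genes of the pathway were read from 4 lists with 54 genes in all, of which 44 were tested in ATRXΔRBR against WT. Of these 10 passed, 2 higher and 8 lower, against 6.85% of all genes. Ror1, Tnfrsf19, Nkd2 and Notum, all lower calls, entered the test through their WT counts alone. Ror1 and Tnfrsf19 had no count in ATRXΔRBR and could only come out lower, and Nkd2 had 2 and 7 counts and Notum 5 and 2. Among extracellular regulators 4 of 6 passed, among target genes 3 of 8, in the β-catenin core 2 of 20 and among co-receptors 1 of 10. Gpc4, a heparan sulfate proteoglycan that holds Wnt ligands at the surface, had 53.8 and 38.7 CPM in WT and 11.7 and 12.9 CPM in ATRXΔRBR (log2 fold change -1.91 ± 0.22 SE; edgeR adjusted p = 0.0023). Apcdd1, a membrane inhibitor of Wnt signaling, had 8.94 and 10.3 CPM in WT and 1.89 and 1.02 CPM in ATRXΔRBR (-2.75 ± 0.36; adjusted p = 0.0037). The co-activator Pygo1 (-3.00), the co-repressor Tle4 (-2.27) and the Dvl-binding inhibitor Nkd2 (-3.52) had lower log2 values, with adjusted p of 0.0036 to 0.0094. Ror1, a co-receptor of Wnt5a, and Tnfrsf19 had no count in ATRXΔRBR and were at least 8.36-fold and 11.8-fold lower (adjusted p = 0.02 and 0.014). Ccnd1, which encodes cyclin D1, was higher by 0.83 on the log2 scale (adjusted p = 0.023). Porcn, which lipidates Wnt ligands, was higher by 1.38 (adjusted p = 0.038) and Notum, which removes that lipid, had -3.05 (adjusted p = 0.025). Axin2, a common reporter of β-catenin signaling, was at 0 in both WT libraries and had 1 count in each ATRXΔRBR library, too few to test. Porcn, Notum and Axin2 fell outside the rule for named genes and were chosen after their values were seen.

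On chromatin, ATRXΔRBR lacked H3K27me3 peaks at some of the members marked in WT and had them at 3 unmarked, transcribed members. A peak was called lost when both WT lists and neither ATRXΔRBR list had one within 2 kb of the TSS, and gained in the opposite case. H3K27me3 was lost at 7 of the 21 marked members, Dkk1, Dkk2, Rspo3, Sfrp1, Sfrp2, Wnt2b and Wnt4, against 29.2% of all 3225 marked genes, a share near that background. It was gained at 3 of 20 unmarked members, Fzd3, Rspo2 and Wnt5a, against 4.39% of 18137 unmarked genes. The other 14 marked members had a peak in all 4 lists. With 2 lists per group no test of single genes can pass.

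The losses differed in width. At Sfrp1 a peak of 23.2 kb in WT replicate 1 and 23.0 kb in WT replicate 2 spanned the TSS, and no peak was left within 2 kb in either ATRXΔRBR list. Dkk1 had peaks of 10.9 and 11.1 kb in WT, Sfrp2 of 5.35 and 5.81 kb and Wnt2b of 3.97 and 7.04 kb, all over the TSS and none with an overlapping peak in ATRXΔRBR. Broad H3K27me3 domains were thus missing at these 4 genes. EZH2 was in both WT lists at all 4, and in ATRXΔRBR it was in the replicate 2 list alone. There it covered 69.9% of the TSS window at Sfrp1, 30.4% at Dkk1, 12.4% at Sfrp2 and 25.3% at Wnt2b. Around Sfrp2 both ATRXΔRBR lists had instead a peak of 4.02 and 4.35 kb that began 10.54 and 10.57 kb downstream of the TSS, where WT had none. At Wnt4 the WT peaks were 0.203 and 0.302 kb long with −log10 q of 1.74 and 1.59, close to the least the peak caller kept. Dkk2 had 2 peaks of 0.375 and 0.374 kb in WT replicate 1 and a peak of 2.43 kb in WT replicate 2. At Rspo3 the peak of 1.30 kb in WT replicate 1 began 1.06 kb inside the gene and that of 2.46 kb in WT replicate 2 began 0.43 kb inside it. In ATRXΔRBR peaks lay at 2.81 and 3.30 kb, just outside the window, and Rspo3 was not counted as lost with a window of 1 kb or of 5 kb.

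The 3 members that gained H3K27me3 had EZH2 in both WT lists. Fzd3 had no H3K27me3 peak within 2 kb in WT, and a peak of 13.1 kb (fold enrichment 4.69) and 10.6 kb (fold enrichment 5.15) over its TSS in the ATRXΔRBR lists. Rspo2 had peaks of 3.68 and 4.29 kb in ATRXΔRBR, with fold enrichments of 4.04 and 3.73. Wnt5a had peaks of 2.51 and 0.932 kb that began 0.66 and 0.13 kb inside the gene. A peak 2.77 kb inside Wnt5a was already there in WT replicate 2, and with a window of 5 kb Wnt5a was not counted as gained. EZH2 covered the TSS window of Fzd3 to 34.5% and 32.8% in WT and to 79.2% and 30.1% in ATRXΔRBR. EZH2 was in both ATRXΔRBR lists at 21 members, against 32.4% of genes, and H3K27me3 at 17, against 13.7%. EZH2 was lost at 1 of 30 members, Rspo3, against 2.66% of the genes with it in both WT lists.

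**Figure D5:**
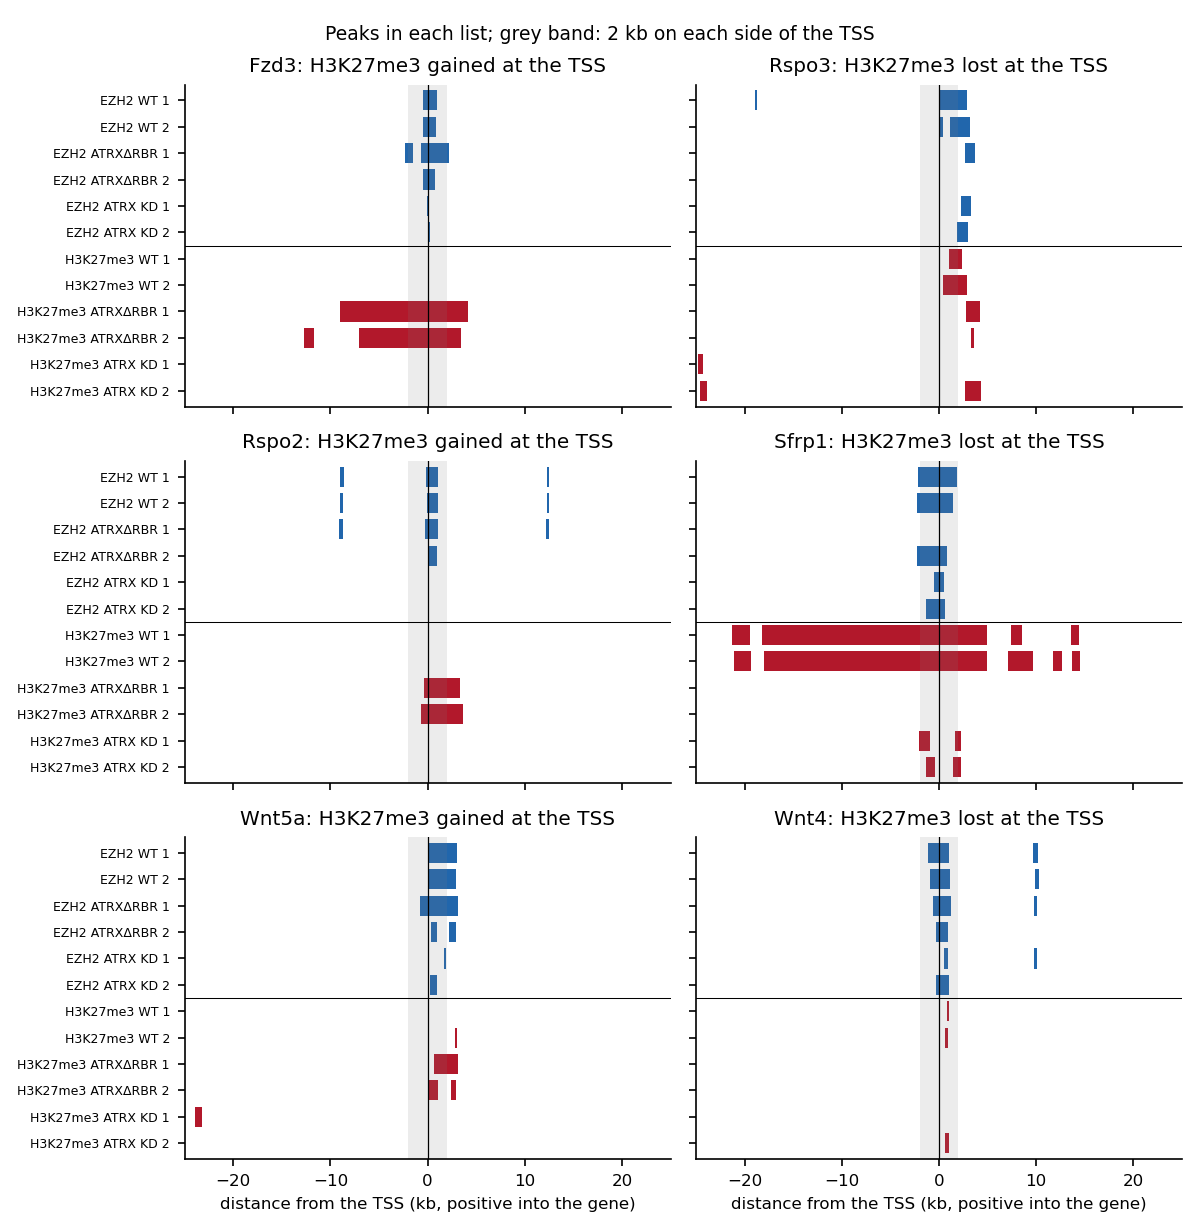
EZH2 (blue) and H3K27me3 (red) peaks within 25 kb of the TSS of 6 members in each of the 12 lists, by distance from the TSS in kb, positive into the gene, with the grey band marking 2 kb on each side. The left column has the 3 members that gained H3K27me3 at the TSS in ATRXΔRBR (Fzd3, Rspo2, Wnt5a) and the right column 3 of the 7 that lost it (Rspo3, Sfrp1, Wnt4). The broad WT bars of Sfrp1, 23.2 and 23.0 kb long, have no counterpart in the ATRXΔRBR rows.

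RNA and H3K27me3 could be set side by side for members with enough counts. Among the 7 members that lost H3K27me3, 5 were tested, and Dkk2, Rspo3 and Sfrp1 passed as lower, while Wnt2b and Wnt4 did not pass. All 3 had entered the test through their WT counts alone, so no link between the mark and RNA is read from them. Of the 248 tested genes that lost the mark 28.6% were lower and 6.45% higher, under the same count filter. Of the 3 members that gained the mark Wnt5a was lower, and Rspo2 and Fzd3 did not pass (adjusted p = 0.11 and 0.08). Over all genes with a gain 19.2% of 359 were lower and 1.39% higher. Among genes with the mark in all 4 lists 21.4% of 585 were lower and 5.64% higher, and of the 3 members tested there Wnt5b and Wnt10a, which had also entered through WT alone, were lower. Genes with it in none of the 4 lists were lower in 2.89% and higher in 3.15% of 11038, and of the 12 members tested there Dkk3, another that entered through WT alone, was lower and Fzd5 higher. Genes called lower were found in each of these 4 states, and no test compared the states.

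ATRX itself had few peaks at these genes. No member had an ATRX peak within 2 kb of the TSS in both WT lists, against 3.74% of genes, or in both ATRXΔRBR lists, against 3.08%. In replicate 1 the WT list had a peak at Fzd2 and Wnt10b, or 2 of 41 against 12.0% of genes. The replicate 1 list of ATRXΔRBR had a peak at 6 members, Fzd1, Fzd2, Fzd4, Fzd5, Fzd7 and Wnt10b, against 13.6% of genes. The 6 were 14.6% of the 41 members, near the share of all genes. All 6 were transcribed genes with EZH2 and no H3K27me3. The share of that state among all genes with a peak in this list was not counted, so nothing is read from it. The replicate 2 lists had none, against 5.70% and 4.91% of genes, so no ATRX peak at a member was shared by the replicates. At Fzd7 the ATRXΔRBR replicate 1 peak (chr1:59481840-59482127) ended 297 bp before the TSS, with a fold enrichment of 4.41 and −log10 q of 2.45. It covered 231 of the 300 promoter bases printed above, beside EZH2 peaks of 1.35 and 0.873 kb in WT and 2.59 and 0.508 kb in ATRXΔRBR.

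The libraries labelled ATRX KD differed from WT at more members, as they did at more genes. Of 24 members tested 11 passed, 6 higher and 5 lower, against 33.0% of 16785 genes (15.2% higher and 17.8% lower). With at least 10 counts in every library 7 members passed, a count without the share over all genes beside it, so nothing is read from it. Both ATRX KD libraries lay above both WT libraries for 9 members, against 34.0% of genes tested, and below them for 8, against 35.7%. Wnt10a, Dkk2 and Sfrp1 entered this test through WT alone and Wnt16 through ATRX KD alone. They are among the members counted as lying apart, so nothing is read from those counts. Wnt10a, with 66 and 41 counts in WT and none in ATRX KD, was at least 43.8-fold lower (edgeR adjusted p = 0.0012). Wnt10b fell from 106 and 126 CPM to 50.1 and 48.3 CPM, a log2 fold change of -1.24 ± 0.13 (SE; edgeR adjusted p = 0.001). Wnt4 was at 3.05 and 3.38 CPM against 21.4 and 9.93 CPM in WT (log2 fold change -2.28 ± 0.38 SE; edgeR adjusted p = 0.0049). All 3 of these ligands lay below both WT libraries. Wnt5a rose to 45.4 and 46.9 CPM from 29.8 and 26.0 CPM (0.72 ± 0.14; edgeR adjusted p = 0.0083), though the call changed without ATRX KD replicate 2. Wnt16 had 14 and 37 counts in ATRX KD against 2 and 5 in WT (2.50 ± 0.59; edgeR adjusted p = 0.018). Wnt5b, at 2.72 and 4.12 CPM against 5.81 and 4.84 CPM, did not pass (edgeR adjusted p = 0.16), though the call changed without WT replicate 2.

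Receptors that passed were higher in ATRX KD. Fzd3 had 44.5 and 44.8 CPM against 17.0 and 24.0 CPM in WT (log2 fold change 1.12 ± 0.19 SE; edgeR adjusted p = 0.0049). Fzd5 had 22.2 and 27.5 CPM against 8.94 and 8.77 CPM (1.49 ± 0.18; edgeR adjusted p = 0.0015). Fzd7 had 62.7 and 68.5 CPM against 50.1 and 44.0 CPM (0.48 ± 0.13; edgeR adjusted p = 0.033), and did not pass when either ATRX KD replicate was left out. The 2 larger changes were those of Fzd3 and Fzd5, while Fzd1, with 70.1 and 71.6 CPM, Fzd2, with 62.9 and 74.9 CPM, Fzd6, with 58.0 and 57.4 CPM, and Fzd8, with 23.7 and 24.4 CPM, had adjusted p of 0.13 to 0.93. Without WT replicate 1 the log2 fold changes of Fzd1, Fzd2 and Fzd6 were 0.39, 0.31 and -0.27, and their calls changed. Fzd9, with 2 and 10 counts against 19 and 11 in WT, lay below WT in both libraries and did not pass (-1.66 ± 0.60; edgeR adjusted p = 0.073). Its call changed without WT replicate 2, and Fzd4 had overlapping groups (adjusted p = 0.9).

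Among the antagonists and agonists Dkk3 passed as higher and Dkk2 and Rspo3 as lower. Dkk3 had 14.5 and 12.8 CPM in ATRX KD against 2.75 and 3.17 CPM in WT (log2 fold change 2.19 ± 0.22 SE; edgeR adjusted p = 0.00075). Dkk2, with 3 and 2 counts against 17 and 15, was lower (-2.83 ± 0.71; edgeR adjusted p = 0.021). It did not pass in DESeq2 (adjusted p = 0.062) or without ATRX KD replicate 2. Sfrp1 had 7 and 2 counts against 17 and 19 in WT and did not pass (edgeR adjusted p = 0.097), though it did with the replicate block (0.015). Its call also changed without WT replicate 1, WT replicate 2 or ATRX KD replicate 1. Rspo3 fell from 8.64 and 6.68 CPM to 0.436 and 0.370 CPM (-4.26 ± 0.36; edgeR adjusted p = 0.00044). Rspo2, at 5.56 and 5.92 CPM against 3.44 and 3.67 CPM, had an edgeR adjusted p of 0.07, and its call changed without WT replicate 2. Because both comparisons use the same WT libraries, a change found in both, as for Wnt10a, Rspo3, Dkk2 and Fzd5, is not independent evidence.

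Of the pathway lists 43 genes were tested in ATRX KD against WT and 21 passed, 12 higher and 9 lower, against 33.0% of genes. Ror1, Gpc3, Lef1 and Tnfrsf19 entered this test through WT alone. Among co-receptors 6 of 9 passed, 5 of them higher, and among target genes 6 of 8, 5 of them lower. The co-receptor Lrp5 rose by 1.24 and the R-spondin receptor Lgr4 by 1.50 on the log2 scale, Kremen1, which binds Dkk proteins, by 0.98 and Rnf43 by 2.73 (adjusted p of 0.00053 to 0.004). The target genes Ccnd1 (-1.47) and Myc (-0.92) and the co-repressor Tle4 (-3.22) were lower (adjusted p of 0.00045 to 0.0055). Ccnd1 was therefore higher in ATRXΔRBR and lower in ATRX KD.

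In the ATRX KD peak lists 14 of the 21 members marked in WT had an H3K27me3 peak in both lists. These were 14 of all 41 members, against 4.23% of genes. It was lost against WT at 4 of the 21 marked members, Dkk1, Rspo3, Wnt5b and Wnt8b, where 58.8% of all marked genes lost it, and gained at none. EZH2 was in both lists at 19 members against 16.4% of genes, and lost at 7 of 30 against 40.9%. An overlap of 1 bp sufficed for this count, and the cover could be far less than in WT. At Sfrp1, for example, H3K27me3 covered 34.6% and 37.3% of the window, in peaks of 0.570 to 1.09 kb, against 100% in WT. The fold enrichment of these peaks was 2.03 to 2.30, against 5.49 and 5.21 in WT, so a peak kept was not a mark unchanged. The smaller number of peaks in these lists stands beside every such value, and no difference between members and other genes was tested.

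The libraries labelled ATRX KD were also compared with ATRXΔRBR directly. Of 20 members tested 9 passed, 7 higher and 2 lower in ATRX KD, against 34.7% of 16520 genes (16.2% higher and 18.5% lower). Wnt5a (45.4 and 46.9 against 3.99 and 5.09 CPM), Dkk3 (14.5 and 12.8 against 0.210 and 0.218 CPM), Wnt5b, Wnt16, Fzd3, Fzd8 and Rspo2 were higher. Dkk3, Wnt5b, Wnt16, Rspo3, Sfrp4 and Fzd9 entered this test through ATRX KD alone. Wnt4 (3.05 and 3.38 against 17.1 and 30.4 CPM) and Wnt10b (50.1 and 48.3 against 146 and 164 CPM) were lower. The groups of all 9 were apart. ATRX KD lay wholly above ATRXΔRBR for 10 members, against 35.2% of genes tested, and wholly below for 5, against 33.4%. The 10 include Dkk3, Wnt5b, Wnt16, Rspo3 and Sfrp4, which entered through ATRX KD alone, so nothing is read from this count. Fzd5, with 22.2 and 27.5 against 24.99 and 21.4 CPM, had overlapping groups in this comparison (edgeR adjusted p = 0.73). Fzd6 had a log2 fold change of -0.39 ± 0.14 (SE; edgeR adjusted p = 0.059), and its call changed when either ATRXΔRBR replicate was left out. The calls of Fzd1 and Fzd2 changed without ATRXΔRBR replicate 1.

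Members that lie next to each other were looked at as pairs, as 4 pairs have TSSs within 50 kb. Between the TSSs of Wnt6 and Wnt10a, 19.6 kb apart on chromosome 1, H3K27me3 covered 80.2% and 79.8% of the interval in the WT lists, 86.6% and 86.9% with the deletion and 11.8% and 8.37% with the shRNA. Between Wnt9b and Wnt3 the WT cover of 73.4% and 78.8% compared with 51.0% and 43.2% for ATRXΔRBR and with 19.8% and 19.7% for ATRX KD, so this interval was less covered in both ATRXΔRBR lists. Cover between Wnt3a and Wnt9a was 12.7% and 16.3%, 14.0% and 11.1%, and 6.38% and 1.93% in the same order. Wnt10b, the most expressed ligand, and Wnt1, silent and marked, lie 11.7 kb apart, and the cover between them was 6.41% and 6.28% in WT and 1.87% and 0.0683% in ATRXΔRBR. No single H3K27me3 peak reached from the TSS of one member of a pair to that of the other.

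The rule did not use sequence, so the CpG content of the members could be compared with that of other genes. Within 500 bp of the TSS the observed over expected CpG ratio had a median of 0.738 over the 41 members (0.254 to 1.04) and of 0.552 over all 21938 genes. The 18 members with EZH2 and H3K27me3 in WT had a median of 0.743 against 0.693 for all genes in that state, and the 12 with EZH2 alone had 0.770 against 0.771. The 7 members with neither had 0.425 against 0.221. These are descriptions, with no test.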

How the data were processed

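Peaks of 16 CUT&RUN libraries and RNA of 6 libraries were analysed, 22 of 26 samples in all, and the IgG libraries were not analysed here. According to the study's methods the authors mapped CUT&RUN reads to mm10 with Bowtie2 and called broad peaks per library with MACS2, and aligned RNA reads with STAR and quantified them with RSEM. The deposited peak lists give the fold enrichment as a ratio and the q-value as −log10 for each peak. The deposited RNA tables give expected counts and TPM per gene, as the authors' RSEM run wrote them, with effective lengths. Expected counts are estimates and were rounded to whole numbers here.

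GENCODE M21 gave gene types, symbols and TSSs, and 53620 of 53801 genes in the RNA tables matched it. The main test was edgeR 4.0.16 (R 4.3.3; TMM, quasi-likelihood, Benjamini-Hochberg over all genes tested) on the 4 libraries of each comparison, for genes with more than 10 counts in total. DESeq2 1.42.0 and limma 3.58.1 on log2(TPM + 1) were alternatives. CPM used TMM-scaled totals. The fits were tested on simulated data. Genes named are the members called in any comparison, up to 3 members per family with the highest WT TPM, Fzd7, and up to 8 called pathway genes per comparison by adjusted p. Fzd4, Fzd9 and Sfrp4 were added after their values were seen. The members and gene lists were chosen with earlier results of these data known. Tables were made with Python 3.11.15.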

Additional observations from a re-analysis of the deposited data

Results flagged for a closer look

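Of the 20 members tested in ATRX KD against ATRXΔRBR, 9 differed between the 2 alterations of ATRX, against 34.7% of 16520 genes. The test was of the difference itself (edgeR's quasi-likelihood test, Benjamini-Hochberg adjusted). Each of the 9 had both libraries of one group above both of the other. Over all genes tested, ATRX KD lay wholly above ATRXΔRBR in 35.2% and wholly below in 33.4%. Dkk3 differed by 5.90 ± 0.35 (SE) on the log2 scale and Wnt5a by 3.30 ± 0.18, and both were lower than WT in ATRXΔRBR and higher than WT in ATRX KD. Wnt5b was higher in ATRX KD by 3.70 ± 0.50, Fzd3 by 1.95 ± 0.15 and Rspo2 by 1.79 ± 0.29. Dkk3, Wnt5b and Wnt16 entered this test through ATRX KD alone, and Dkk3 and Wnt5b had 5 and 6 counts in all in ATRXΔRBR. Wnt4, at -2.90 ± 0.29, and Wnt10b, at -1.68 ± 0.13, were lower in ATRX KD. Wnt16 gave 3.57 ± 0.77, but ATRXΔRBR had only 3 counts in all, and the ratio of ATRXΔRBR to ATRX KD was 0.0778, with a 95% counting interval of 0.0155 to 0.240. Fzd8 differed least, by 0.51 ± 0.16 (edgeR adjusted p = 0.035). It did not pass in DESeq2 (0.087), in limma (0.06), with all 6 libraries in a single fit (0.05) or without either ATRX KD replicate. The run and the group cannot be told apart in these values.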

How the results depend on the processing

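No log2 fold change that passed under either setting changed sign. Of 621 alternative values of named log2 fold changes, 574 stayed on the same side of the threshold, some with a change of sign where neither value passed, 14 fell below it and 33 came above it. Members called in ATRXΔRBR against WT were 8, but 2 with at least 10 counts in every library, 5 with limma, 12 with all 6 libraries in a single fit and 9 to 10 leaving out a replicate. Pathway genes called there were 10, but 4 with at least 10 counts in every library, 5 with limma and 7 to 11 leaving out a replicate. Over all genes the count of 1119 became 1979 with no filter, 597 with at least 10 counts in every library, 484 with limma and 1812 with all 6 libraries. In ATRX KD against WT 11 members were called, but 7 with at least 10 counts in every library and 8 to 15 leaving out a replicate, and 21 pathway genes, but 13 with limma and 15 to 26 leaving out a replicate. In ATRX KD against ATRXΔRBR the 9 members ranged from 8 to 13 and the 22 pathway genes from 13, without ATRX KD replicate 2, to 28. For the 2 comparisons with ATRX KD the share over all genes under each setting is not given, so nothing about the members is read from those counts. In ATRXΔRBR against WT, Fzd3 and Fzd9 passed with no filter (adjusted p = 0.011 and 0.0041) and, with all 6 libraries, Fzd1, Fzd7 and Rspo2 passed too (0.039, 0.044 and 0.042). TPM moved the median log2 fold change by 0.22 in ATRX KD against WT and by 0.18 in ATRX KD against ATRXΔRBR, so folds are relative to TMM scaling.

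The replicate numbers are not stated to pair libraries. The deviations of same-numbered libraries had correlations of -0.55, -0.07 and 0.09 in the 3 comparisons, so in ATRXΔRBR against WT they tended to go opposite ways. With a replicate block 9, 12 and 12 members and 10, 20 and 23 pathway genes were called in ATRXΔRBR against WT, ATRX KD against WT and ATRX KD against ATRXΔRBR. With the crossed pairing, chosen after seeing the data, 18 members and 23 pathway genes were called in ATRXΔRBR against WT. The share over all genes in these fits is not set beside the counts, so nothing about the members is read from them.

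The mean number of members with a TSS peak per list was 21 for H3K27me3 in WT and 17 in ATRXΔRBR, but 11.5 and 9 when a peak's midpoint had to lie in the window. With q at most 0.01 EZH2 in ATRX KD went from 21 to 12.5 and H3K27me3 in ATRX KD from 15.5 to 6.5. ATRX in WT went from 1 to 0.5 (0 to 2 by list) and ATRX in ATRXΔRBR from 3 to 1 (0 to 6 by list). Windows of 1 and 5 kb for lost and gained H3K27me3 were chosen after seeing the data and gave 6 and 6 losses and 3 and 2 gains. The cause of these shifts was not tested.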
